A study of Mus musculus with 6 samples.

Results

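The enzymes described here modify and cross-link collagen: the prolyl 4-hydroxylase subunits P4ha1, P4ha2 and P4hb, the lysyl hydroxylases Plod1, Plod2 and Plod3, and the lysyl oxidases Lox, Loxl1, Loxl2 and Loxl3. They were chosen by name, by matching Ensembl gene IDs to symbols, and all 10 were among the 13843 genes measured. Messenger RNA was sequenced from the ventricles of single mouse embryos at stage E12.5, with atria and valves removed. The knockouts carried Vhl flox/flox and 1 Nkx2-5 allele replaced by Cre, and the controls carried Vhl flox/flox with intact Nkx2-5, all on a C57BL/6 background, with 3 embryos in each group. Because no group was designed to carry Cre with intact Vhl, loss of Vhl and the Cre allele cannot be told apart. Cre driven from Nkx2-5 acts in heart muscle progenitors and their descendants, so other cells of the ventricle may keep Vhl. The labels place knockout 1 and control 1 in litter 1, knockout 2 and control 2 in litter 2, control 3 in litter 3 and knockout 3 in litter 4, whereas the design text names 3 litters.

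Vhl marks hydroxylated HIF alpha subunits for destruction, and HIF transcription factors switch on genes of glycolysis, oxygen transport and matrix modification when oxygen is low. Prolyl and lysyl hydroxylases act on new collagen chains in the endoplasmic reticulum and need oxygen, iron, 2-oxoglutarate and ascorbate. Hydroxyproline holds the collagen triple helix together, and hydroxylysine carries sugars and shapes later cross-links. Lysyl oxidases are copper enzymes that act outside the cell, where they turn lysines of collagen and elastin into reactive aldehydes that join neighbouring molecules. In several cell types P4ha1, P4ha2, Plod1, Plod2, Lox and Loxl2 are known to respond to HIF, and they are called HIF-linked here. The other 4 members, P4hb, Plod3, Loxl1 and Loxl3, are not widely described as HIF targets.

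Values are normalized signals, reads scaled by the authors to library size, and the 6 libraries held 9067805 to 12592902 reads in the table. Vhl itself stood at 11.1 and 10.3 in knockouts 1 and 2, at 34.5 in the embryo labelled knockout 3, and at 33.7, 36.3 and 38.6 in controls 1 to 3. The embryo labelled knockout 3 therefore lay inside the control range for Vhl, against its label. Egln1, an oxygen-sensing hydroxylase and HIF target, stood at 297 and 319.7 in knockouts 1 and 2, at 112 in the embryo labelled knockout 3, and at 108, 111 and 109 in the controls. The comparisons below set knockouts 1 and 2 against the 3 controls and show the embryo labelled knockout 3 apart, with the results over all 6 libraries beside them. In bulk tissue, fewer cells of a type and less RNA per cell cannot be told apart.

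Stretches upstream of 4 of the 6 enzymes that rose are shown first, because HIF binds the core letters ACGTG or GCGTG. Windows of 250 bases before the start site were taken from RefSeq on GRCm38.p6, read 5′ to 3′ in the direction of the gene, and searched for both cores on both strands. Capitals mark each match, and no 2 matches overlapped. The windows lie at chr10:59323046-59323295 on the plus strand for P4ha1, chr11:54100674-54100923 on the plus strand for P4ha2, chr11:120573254-120573503 on the minus strand for P4hb and chr4:147936777-147937026 on the minus strand for Plod1. The P4ha2 window lies inside the longer gene span given by GENCODE M21, ahead of the RefSeq start.
P4ha1: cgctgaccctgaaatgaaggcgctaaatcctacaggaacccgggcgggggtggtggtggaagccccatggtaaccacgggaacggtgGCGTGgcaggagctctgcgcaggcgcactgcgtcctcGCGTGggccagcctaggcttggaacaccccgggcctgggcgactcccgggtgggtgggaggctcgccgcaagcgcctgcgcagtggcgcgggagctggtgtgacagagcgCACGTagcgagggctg
P4ha2: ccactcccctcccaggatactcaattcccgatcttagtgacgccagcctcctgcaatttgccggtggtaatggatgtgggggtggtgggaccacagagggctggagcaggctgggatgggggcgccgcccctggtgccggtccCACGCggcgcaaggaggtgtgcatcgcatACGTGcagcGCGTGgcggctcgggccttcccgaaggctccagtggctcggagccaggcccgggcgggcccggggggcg
P4hb: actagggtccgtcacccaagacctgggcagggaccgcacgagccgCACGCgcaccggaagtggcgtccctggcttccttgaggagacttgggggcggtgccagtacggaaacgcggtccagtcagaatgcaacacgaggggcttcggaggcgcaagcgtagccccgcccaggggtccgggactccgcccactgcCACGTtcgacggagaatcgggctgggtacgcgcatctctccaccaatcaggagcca
Plod1: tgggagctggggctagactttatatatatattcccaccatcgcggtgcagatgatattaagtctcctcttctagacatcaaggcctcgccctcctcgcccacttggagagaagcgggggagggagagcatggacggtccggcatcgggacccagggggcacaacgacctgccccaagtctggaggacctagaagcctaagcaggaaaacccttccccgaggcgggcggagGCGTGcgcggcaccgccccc
P4ha1 held 3 matches, at 163, 126 and 16 bases before the start, and P4ha2 held 3, at 107, 78 and 69 bases. P4hb held 2, at 205 and 56 bases, and Plod1 held 1, at 20 bases. Plod3, whose window is not printed because it overlaps an exon of a neighbouring gene, held 4. Of 32851 such windows, 38.6% held at least 1 match, 16.7% at least 2, 6.58% at least 3 and 2.58% at least 4. The window with the most matches thus belonged to Plod3, which had the smallest change among the 5 enzymes with a window. A match describes letters only and says nothing of binding in these hearts.

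Of the 10 enzymes, 6 were higher in knockouts 1 and 2 than in controls at an adjusted p under 0.05 (limma, Benjamini-Hochberg over all genes): P4ha1, P4ha2, P4hb, Plod1, Plod2 and Loxl2. None was lower by limma, edgeR or DESeq2, and none was lower at an unadjusted p under 0.05 by any of the 3 tools. Plod3, Lox, Loxl1 and Loxl3 did not pass. Over all genes, 416 were higher, which is 3.01%, and 172 were lower, which is 1.24%. The median difference of the 10 enzymes was 0.75 on the log2(value + 1) scale, against -0.01 over all genes. In 8 of the 10 enzymes both knockouts lay above all 3 controls, a pattern found in 18.1% of all genes. P-values measure the spread between single embryos.

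**Figure D1:**
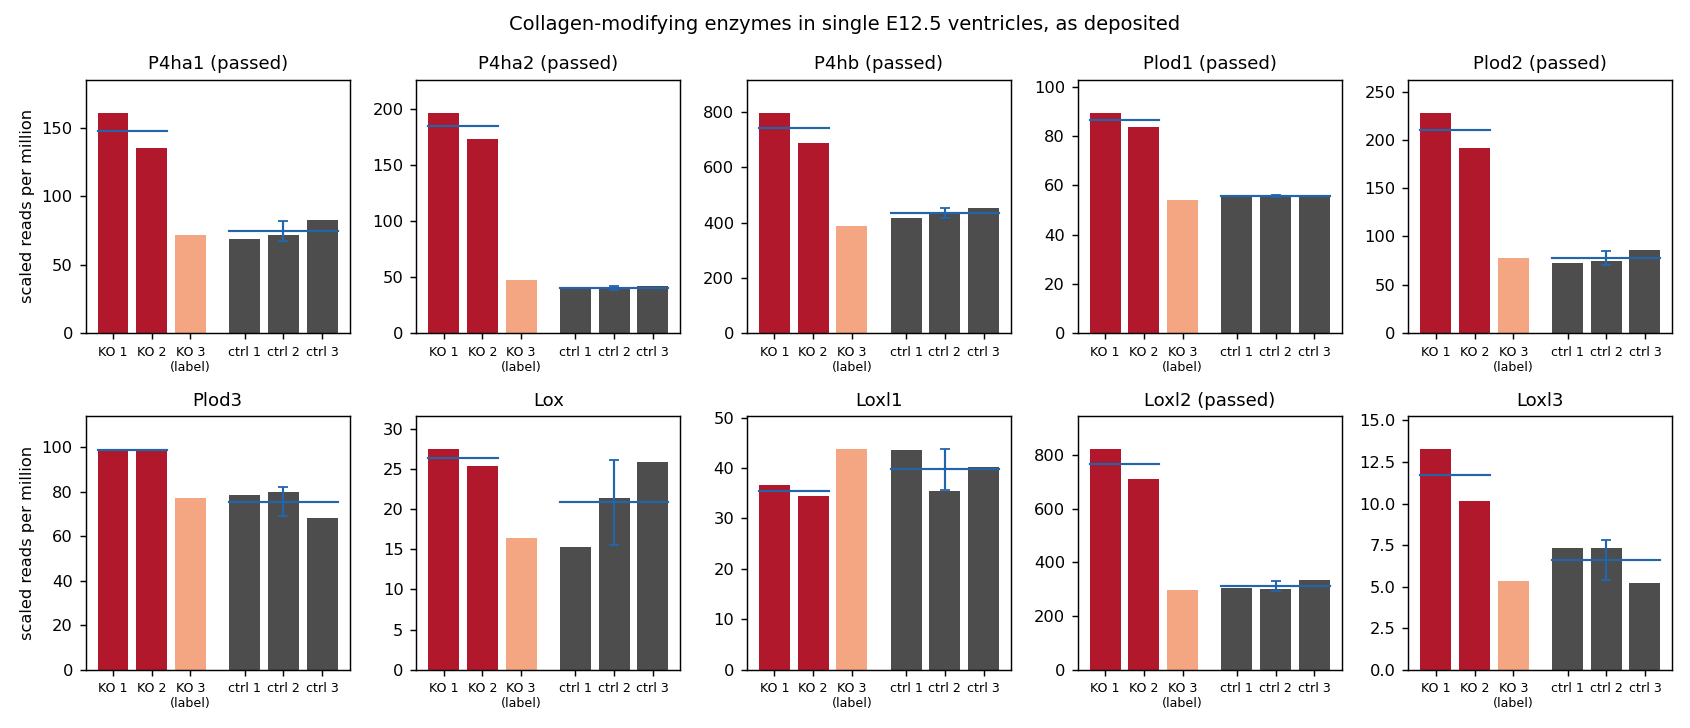
Normalized value of each enzyme in each embryo (y axis, starting at 0). Red bars are knockouts 1 and 2, the light bar is the embryo labelled knockout 3 and grey bars are controls; blue lines are group means, and the error bar is the SD of the 3 controls. Enzymes marked as passed had an adjusted p under 0.05, and P4ha2 stood at 196 and 173 in the knockouts against 38.9 to 42.4 in controls.

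Prolyl 4-hydroxylase is a tetramer of paired catalytic alpha subunits and paired beta subunits. P4ha2 (ENSMUSG00000018906, chromosome 11, 54100095 to 54131665, GRCm38), the second alpha subunit, stood at 196 and 173 in knockouts 1 and 2, at 47.4 in the embryo labelled knockout 3, and at 38.9, 39.6 and 42.4 in controls. Knockouts 1 and 2 lay far above every control, and the third embryo lay slightly above them. Their mean was 4.58 times the control mean, and the difference of 2.17 ± 0.08 (log2 ± SE, 95% interval 1.97 to 2.36) had an adjusted p of 4.4e-05. It ranked 27 among all genes by the size of the log2 difference, from the highest down. P4ha1 (ENSMUSG00000019916, chromosome 10, 59323296 to 59373304), the main alpha subunit of many tissues, stood at 161 and 135 in knockouts 1 and 2, at 71.8 in the embryo labelled knockout 3, and at 68.9, 71.8 and 82.7 in controls. The 2 knockouts lay above all controls and the third embryo fell among them. The difference was 0.98 ± 0.11 (log2 ± SE, adjusted p = 0.00266), with a mean 1.99 times the control mean. The upstream stretches of P4ha1 and P4ha2 printed above held 3 matches each, while their log2 differences were 0.98 and 2.17.

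P4hb (ENSMUSG00000025130, chromosome 11, 120560298 to 120573253) encodes protein disulfide isomerase, which serves as the beta subunit and also folds many other secreted proteins. It stood at 798 and 689.5 in knockouts 1 and 2, at 389 in the embryo labelled knockout 3, and at 417, 437 and 454 in controls. The groups did not overlap, and the third embryo was below every control. P4hb rose by 0.77 ± 0.09 (log2 ± SE, adjusted p = 0.00337), to 1.71 times the control mean. It was the single member outside the HIF-linked class that passed the test.

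The alpha subunits differed in how much they rose, so their make-up was described per kilobase of exon, with P4ha3 included as the remaining alpha subunit. This description was chosen after the values were seen and carries no test. P4ha2 made up 42.3% and 42.8% of the alpha subunit signal in knockouts 1 and 2, 25.6% in the embryo labelled knockout 3, and 22.0 ± 0.94% in controls (SD, n = 3). P4ha1 made up 52.5% and 50.6% in the 2 knockouts, 58.6% in the third embryo and 59.7% to 62.8% in controls. P4ha3 made up 5.16% and 6.64% in the 2 knockouts, 15.8% in the third embryo and 15.2% to 18.6% in controls. P4ha2 thus took a larger share of a larger total, since the summed alpha subunit value per kilobase was 74.4 and 64.8 in knockouts 1 and 2, 29.8 in the embryo labelled knockout 3, and 27.1 to 32.0 in controls. P4ha3 itself did not pass, at -0.24 ± 0.15 (log2 ± SE, adjusted p = 0.479). The ratio of P4hb to the summed alpha subunits per kilobase was 3.75 and 3.72 in knockouts 1 and 2, 4.57 in the embryo labelled knockout 3, and 4.96 to 5.38 in controls.

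**Figure D2:**
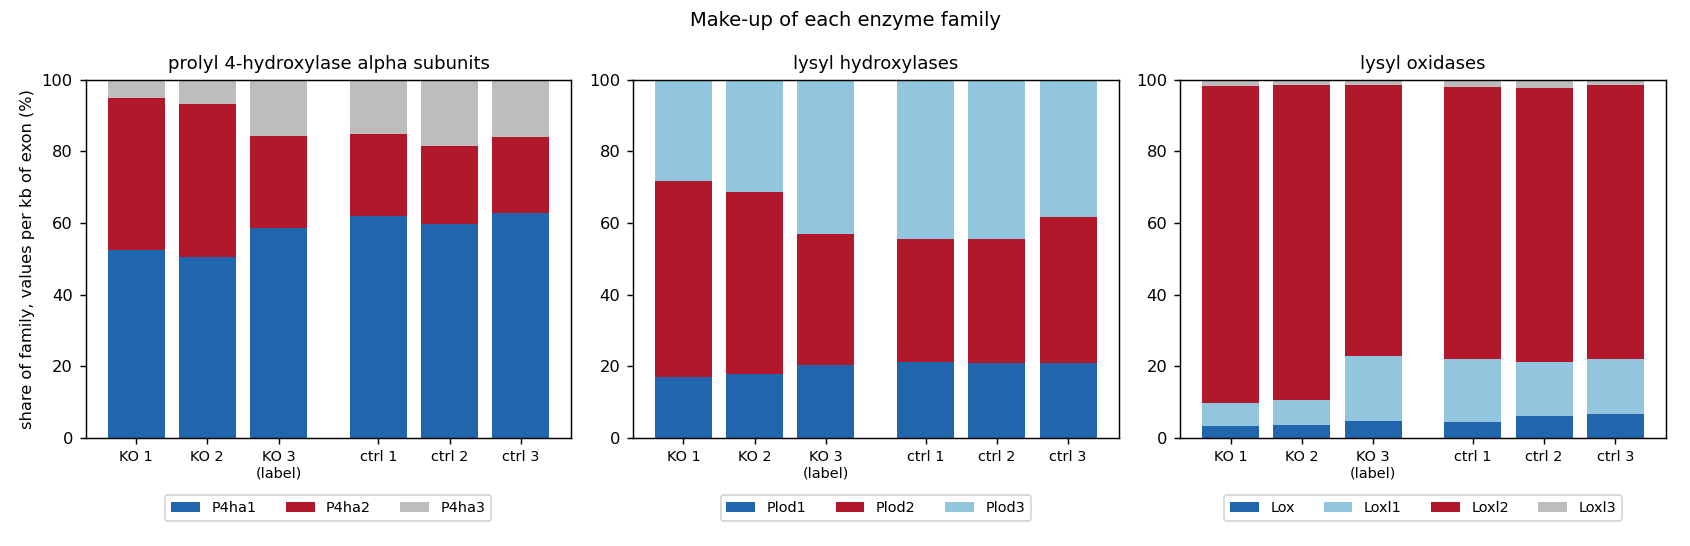
Share of each gene in its family's summed value per kilobase of exon (y axis, percent) in each embryo, knockouts left and controls right. P4ha2, Plod2 and Loxl2 (red) took 42.3%, 54.6% and 88.5% in knockout 1, above their share in every control.

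Among the lysyl hydroxylases, Plod2 (ENSMUSG00000032374, chromosome 9, 92542223 to 92608428) hydroxylates lysines in the end regions of collagen, which sets the type of cross-link formed. It stood at 228 and 192 in knockouts 1 and 2, at 78.1 in the embryo labelled knockout 3, and at 72.6, 74.3 and 86.2 in controls. Both knockouts lay above every control, with the third embryo among the controls. Plod2 rose by 1.42 ± 0.11 (log2 ± SE, adjusted p = 0.000429), to 2.70 times the control mean. It shares 346 exon bases, 6.42% of its exon length, with Gm38391 on the opposite strand, which was not among the genes measured. Plod1 (ENSMUSG00000019055, chromosome 4, 147909753 to 147936767), which acts on lysines of the helical region, stood at 89.5 and 83.7 in knockouts 1 and 2, at 54.2 in the embryo labelled knockout 3, and at 56.0, 55.7 and 55.2 in controls. The controls lay within a SD of 0.433, and the knockouts did not overlap them. Plod1 rose by 0.63 ± 0.07 (log2 ± SE, adjusted p = 0.00335).

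Plod3 (ENSMUSG00000004846, chromosome 5, 136987019 to 136996648) also attaches sugars to hydroxylysine. It stood at 98.9 and 98.6 in knockouts 1 and 2, at 77.0 in the embryo labelled knockout 3, and at 78.5, 79.8 and 68.2 in controls. Both knockouts lay above every control, but the difference of 0.39 ± 0.09 (log2 ± SE, 95% interval 0.18 to 0.59) had an adjusted p of 0.0536. Between littermates, with litter as a replicate block, Plod3 passed at a limma adjusted p of 0.0416. Its difference was smaller there, at 0.32 ± 0.09 (log2 ± SE), and that fit has 1 residual degree of freedom. In that fit 681 genes were higher, which is 4.92%, and 444 were lower, which is 3.21%. Plod3 shares 529 exon bases with Znhit1 on the opposite strand, 11.7% of its exon length, and the library kit does not mark strand, so its reads cannot be fully told apart from those of Znhit1. Znhit1 itself differed by 0.55 (log2, adjusted p = 0.0499). Plod2 made up 54.6% and 51.0% of lysyl hydroxylase signal per kilobase in knockouts 1 and 2, 36.6% in the embryo labelled knockout 3, and 34.4% to 40.8% in controls. The summed value per kilobase was 77.4 and 69.8 in the 2 knockouts, 39.5 in the third embryo and 39.1 to 39.7 in controls.

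Loxl2 (ENSMUSG00000034205, chromosome 14, 69609068 to 69695834), a lysyl oxidase with scavenger receptor domains that cross-links collagen IV, was the lysyl oxidase with the largest change. It stood at 820.5 and 709.5 in knockouts 1 and 2, at 299 in the embryo labelled knockout 3, and at 305, 299 and 334 in controls. The 2 knockouts lay above every control and the third embryo was marginally under the lowest of them. Loxl2 rose by 1.29 ± 0.09 (log2 ± SE, adjusted p = 0.000323), to 2.45 times the control mean. It shares 301 exon bases, 5.57% of its exon length, with Gm27177 on the opposite strand, which was not among the genes measured.

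The other lysyl oxidases did not pass. Lox (ENSMUSG00000024529, chromosome 18, 52516067 to 52529867), the founding enzyme of the family, stood at 27.4 and 25.3 in knockouts 1 and 2, at 16.4 in the embryo labelled knockout 3, and at 15.3, 21.4 and 25.8 in controls. The groups overlapped, and the controls alone spanned 15.3 to 25.8. The difference was 0.35 ± 0.20 (log2 ± SE, 95% interval -0.10 to 0.81, adjusted p = 0.407), so a rise as large as that of Plod1 lies within the interval. Without control 1 the Lox difference was 0.16 and without control 3 it was 0.52, neither past the threshold. Loxl1 (ENSMUSG00000032334, chromosome 9, 58287738 to 58313186), which works on elastic fibres, stood at 36.6 and 34.4 in knockouts 1 and 2, at 43.7 in the embryo labelled knockout 3, and at 43.5, 35.4 and 40.3 in controls. The groups overlapped and the difference was -0.15 ± 0.11 (log2 ± SE, 95% interval -0.40 to 0.09, adjusted p = 0.526). Leaving out 1 embryo gave differences of -0.23 to -0.09 for Loxl1, the lowest without control 2 and the highest without control 1. Loxl1 was the single member with a mean below that of controls.

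Loxl3 (ENSMUSG00000000693, chromosome 6, 83034173 to 83052562), another scavenger receptor type lysyl oxidase, was the scarcest member, with 50 to 164 reads per library. It stood at 13.3 and 10.2 in knockouts 1 and 2, at 5.31 in the embryo labelled knockout 3, and at 7.32, 7.30 and 5.24 in controls. Both knockouts lay above every control, and the difference was 0.74 ± 0.19 (log2 ± SE, 95% interval 0.29 to 1.19, adjusted p = 0.0869). The interval reaches changes as large as that of P4ha1 and smaller than that of Plod3. Loxl3 shares 535 exon bases with Htra2 on the opposite strand, 11.6% of its exon length, so its reads cannot be fully told apart from those of Htra2. Htra2 stood at 50.5, 40.5 and 37.0 in controls 1 to 3, far above Loxl3, and differed by -0.07 (log2, limma adjusted p = 0.847). Loxl2 made up 88.5% and 88.0% of lysyl oxidase signal per kilobase in knockouts 1 and 2, 75.6% in the embryo labelled knockout 3, and 75.9% to 76.7% in controls. Loxl1 made up 6.47% and 7.0% in the 2 knockouts, 18.1% in the third embryo and 14.9% to 17.7% in controls.

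**Figure D3:**
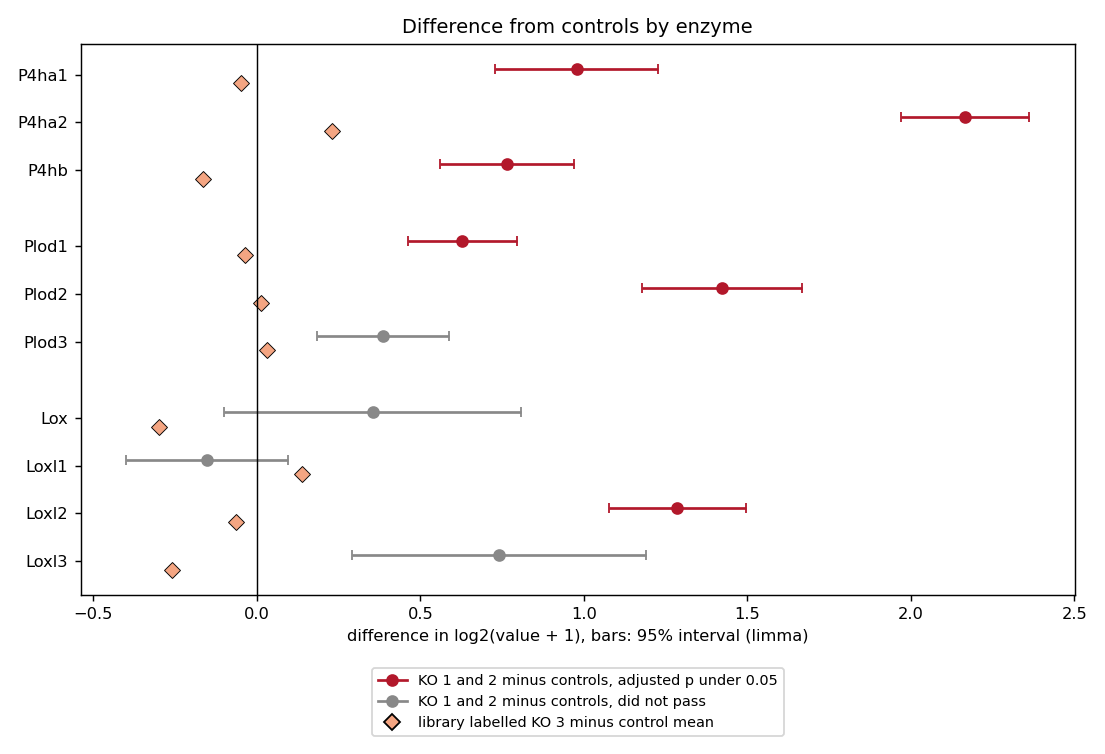
Difference from controls in log2(value + 1) (x axis) for each enzyme. Circles are knockouts 1 and 2 with their 95% interval, red where the adjusted p was under 0.05. Diamonds are the embryo labelled knockout 3 minus the control mean, from -0.30 (Lox) to 0.23 (P4ha2). The circles of P4ha2, Plod2 and Loxl2 reach 2.17, 1.42 and 1.29, and that of Lox lies at 0.35.

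By HIF-linked class, 5 of 6 HIF-linked enzymes passed, with a median log2 difference of 1.13, and 1 of the 4 others passed, with a median of 0.56. The classes overlapped, since P4hb (0.77) and Loxl3 (0.74) differed more than the HIF-linked Plod1 (0.63) and Lox (0.35). Plod3 and Loxl3 did not pass, yet both knockouts lay above every control for each. The gap within each family was measured per embryo as the mean log2(value + 1) of its HIF-linked members minus that of its other members. For prolyl 4-hydroxylase the gap was -2.16 and -2.17 in knockouts 1 and 2, -2.72 in the embryo labelled knockout 3, and -2.98, -3.01 and -2.92 in controls. For lysyl hydroxylases it was 0.53 and 0.36 in knockouts 1 and 2, -0.24 in the embryo labelled knockout 3, and -0.30, -0.31 and 0.02 in controls. For lysyl oxidases it was 2.72 and 2.78 in knockouts 1 and 2, 2.10 in the embryo labelled knockout 3, and 1.88, 2.24 and 2.56 in controls. Of the HIF-linked lysyl oxidases, Loxl2 differed by 1.29, while Lox differed less than Loxl3. In each family both knockouts lay above every control. The mean of knockouts 1 and 2 minus the mean of controls was 0.81 for prolyl 4-hydroxylase, 0.64 for lysyl hydroxylases and 0.53 for lysyl oxidases. Each gave a two-sided exact permutation p of 0.2, the smallest that 2 embryos against 3 allow, so the test could not pass 0.05. Over all 6 libraries as labelled the differences were 0.62, 0.41 and 0.31 in the same order. Their exact permutation p-values were 0.1, 0.2 and 0.3, where 0.1 is the smallest that 3 against 3 allow.

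Levels were set side by side per kilobase of exon. The length counts all annotated exons of a gene, used or not, so the order depends on the annotation. In controls P4hb was the most abundant at a normalized value per kilobase of 152 ± 6.5 (SD, n = 3), ahead of Loxl2 at 57.8 ± 3.4. P4ha1, Plod3 and Plod2 followed at 18.1, 16.7 and 14.4, and neighbours among these 3 overlapped in range. Loxl1 stood at 12.0, Plod1 at 8.22, P4ha2 at 6.46, Lox at 4.36 and Loxl3 at 1.44. In knockouts 1 and 2 the mean levels per kilobase were 260.0 for P4hb, 142 for Loxl2, 39.0 for Plod2, 35.9 for P4ha1 and 29.6 for P4ha2. Plod3 stood at 21.9, Plod1 at 12.8, Loxl1 at 10.8, Lox at 5.52 and Loxl3 at 2.54 in the same embryos. P4ha2 was the eighth of the 10 in controls and the fifth in knockouts 1 and 2.

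Each knockout was also set against its littermate control. P4ha2 differed by 2.31 in litter 1 and 2.10 in litter 2 (knockout minus littermate control, log2). Plod2 differed by 1.64 and 1.36 in the same order, and Loxl2 by 1.42 and 1.24. Lox differed by 0.80 in litter 1 and by 0.23 in litter 2, the widest split among these 4. With litter as a replicate block 7 enzymes passed, Plod3 joining the 6.

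When all 6 libraries were compared by label, 0 of the 10 enzymes passed in limma, edgeR or DESeq2. Limma called 0% of genes in either direction, with 859 genes at an unadjusted p under 0.05, and edgeR called 0 with 907. DESeq2 called 7 genes higher and 4 lower, with 800 at an unadjusted p under 0.05. In limma 6 enzymes were higher at an unadjusted p under 0.05, against 3.63% of all genes. P4ha2 still had the largest difference of the 10, at 1.52, with an adjusted p of 0.768 in limma.

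The embryo labelled knockout 3 lay within the control range for P4ha1, Plod2, Plod3, Lox and Loxl3. It was above all controls for P4ha2 and Loxl1, and below them for P4hb, Plod1 and Loxl2.

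The other genes of collagen making were read list by list, beside 3.01% of all genes higher and 1.24% lower in limma. Of 9 measured collagen hydroxylases, glycosyltransferases and their partners outside the 10, 3 rose and 0 fell, with a median log2 difference of 0.38. They were P3h4, a scaffold of lysyl hydroxylation (0.58 ± 0.10, adjusted p = 0.0203), and the hydroxylysine galactosyltransferases Colgalt1 (0.40 ± 0.07, adjusted p = 0.0258) and Colgalt2 (0.77 ± 0.12, adjusted p = 0.0147). With the replicate block 5 of the 9 rose, P3h2 and P3h3 joining them. DESeq2 also called 5, with P3h2 and Ppib joining the 3. Over all 13843 genes DESeq2 called 556 higher and 278 lower, against 416 and 172 in limma. None of 11 genes of collagen folding and export passed in limma or edgeR, while DESeq2 called Serpinh1. At an unadjusted p under 0.05 in limma there were 4, of which Tmem38b was lower (-0.28). For knockouts 1 and 2 against controls, the share of all genes at that unadjusted level was not counted, here or for the lists below. Of the folding and export genes, the smallest p-values were those of Fkbp10, a collagen prolyl isomerase (0.28 ± 0.09, adjusted p = 0.142), and Serpinh1, the collagen chaperone (0.24 ± 0.09, adjusted p = 0.204). Pcolce, an enhancer of procollagen cleavage, was the 1 of 6 processing genes that rose (0.47 ± 0.10, adjusted p = 0.0443).

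Of 16 measured collagen chains, 2 rose and 0 fell, with a median of 0.27. At an unadjusted p under 0.05 in limma there were 7, none of them lower. Col12a1 stood at 137 and 125 in knockouts 1 and 2, at 70.2 in the embryo labelled knockout 3, and at 65.9, 64.9 and 52.4 in controls. It rose by 1.09 ± 0.11 (log2 ± SE, adjusted p = 0.00194), and Col6a1 rose by 0.86 ± 0.10 (adjusted p = 0.00411). None of 10 elastic fibre genes passed in limma, edgeR or DESeq2, 1 had an unadjusted p under 0.05, and their median was -0.16. That gene was Mfap5, a microfibril protein, at -0.76 ± 0.19 (adjusted p = 0.0721), and it fell with the replicate block (adjusted p = 0.0164), where the list's median was -0.01.

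Ero1a, listed as Ero1l in the annotation, reoxidises protein disulfide isomerase and was the 1 of 9 genes of that group that passed in limma and edgeR. It stood at 238 and 215 in knockouts 1 and 2, at 108 in the embryo labelled knockout 3, and at 105, 107 and 105 in controls, a difference of 1.09 ± 0.07 (log2 ± SE, adjusted p = 0.000253). With the replicate block Pdia4 also rose, making 2 of 9. DESeq2 called Pdia4, Pdia6 and Calr higher beside Ero1a. In limma 5 of the 9 had an unadjusted p under 0.05, none of them lower. Of 5 further 2-oxoglutarate hydroxylases, most of them oxygen sensors of the HIF pathway, Egln1 (1.49 ± 0.07, adjusted p = 6.9e-05) and Egln3 (2.07 ± 0.29, adjusted p = 0.00803) rose, while Egln2, Hif1an and P4htm did not pass.

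**Figure D4:**
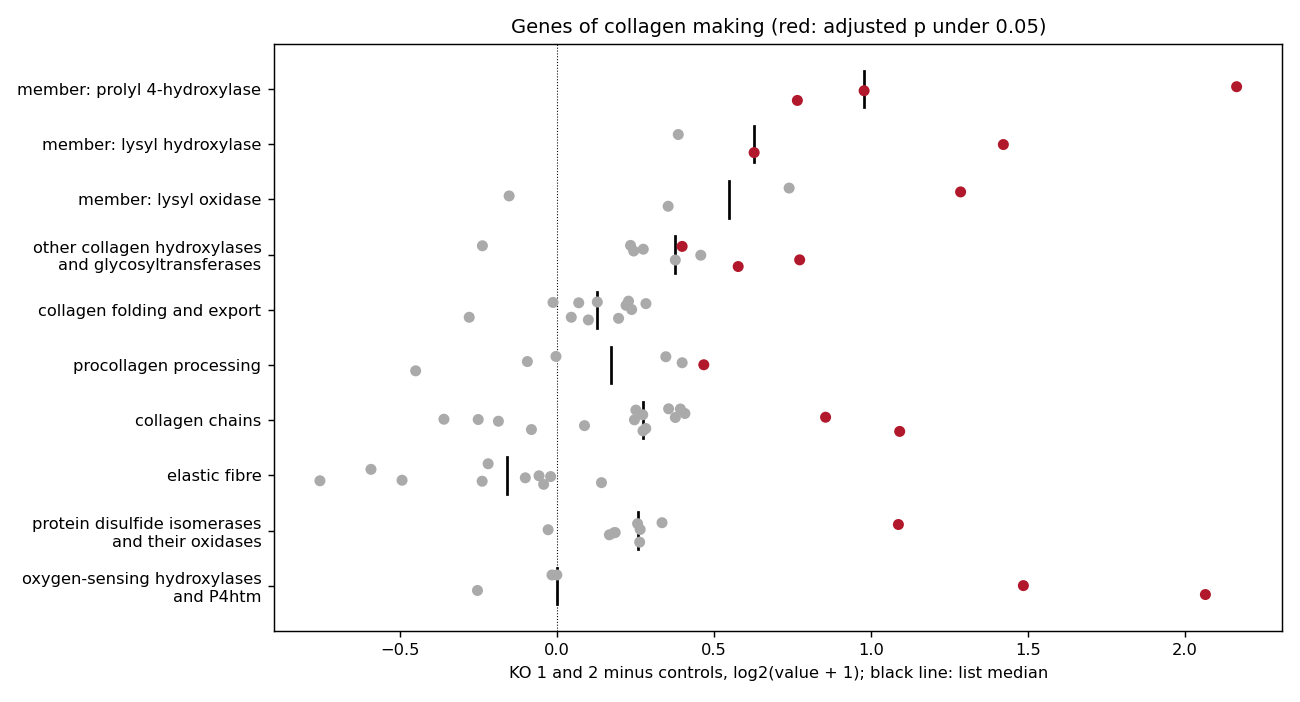
Difference between knockouts 1 and 2 and controls in log2(value + 1) (x axis) for each measured gene of each list (rows), red where the adjusted p was under 0.05. Black lines are list medians, 0.13 for collagen folding and export and -0.16 for elastic fibre genes, and all 3 prolyl 4-hydroxylase members lie to the right of 0.75.

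Some marker genes of epicardium and smooth muscle moved with the enzymes that rose, and others of the same lists did not. Over all genes, 3.01% were higher in limma. The 7 epicardial markers summed to 723 and 618 in knockouts 1 and 2. Their sum was 348 in the embryo labelled knockout 3 and 299.8 to 372 in controls. Krt19 alone made 268 and 210 of the sums in knockouts 1 and 2. It made 46.6 in the third embryo and 43.8, 49.2 and 35.2 in controls, so much of the higher sum was this 1 gene. Of the 7, 3 rose (Wt1, Upk1b and Krt19), and DESeq2 also called Upk3b. Tbx18, Aldh1a2 and Msln passed in none of the 3 tools (log2 differences 0.30, 0.30 and 0.16). The sum of 7 smooth muscle and pericyte markers was 2578 and 2587 in the 2 knockouts, 1405 in the third embryo, and 1345 to 1665 in controls. Acta2 alone made 1569 and 1515 of the sums in knockouts 1 and 2. Acta2, Tagln and Cnn1 rose. Myh11 (log2 difference 0.01), Rgs5 (-0.10), Pdgfrb (0.38) and Cspg4 (0.15) did not pass. Myh11 and Rgs5 were scarce, with 5 to 37 and 7 to 22 reads per library, so their differences say little. For 8 fibroblast and mesenchyme markers the sum was 1861 and 1828 in the 2 knockouts, 1386 in the third embryo, and 1263 to 1776 in controls. Of these, 0 passed in limma, edgeR or DESeq2, and 2 had an unadjusted p under 0.05 in limma (Dcn and Tcf21, both higher). Of 8 endothelial markers 1 rose (Emcn), and DESeq2 also called Pecam1. In limma 4 of the 8 had an unadjusted p under 0.05, none of them lower. Endothelial sums were 1618 and 1625 in the 2 knockouts, 1362 in the third embryo, and 1409 to 1499.5 in controls. The 9 heart muscle markers summed to 33660.0 and 30519.7 in the 2 knockouts, 32814 in the third embryo, and 29936 to 36891 in controls. Of these, 0 passed in any of the 3 tools, and 1 had an unadjusted p under 0.05 in limma (Nppa, higher). The 4 macrophage markers measured summed to 73 and 58.5 in the 2 knockouts, 81.8 in the third embryo, and 63.1 to 81.1 in controls. The 8 red cell markers summed to 6940.4 and 15251 in the 2 knockouts, 11248 in the third embryo, and 6309 to 14226 in controls, and none of either list passed in any of the 3 tools or at an unadjusted p under 0.05. With the replicate block 5 epicardial markers, 4 of smooth muscle and pericytes (Pdgfrb joining), 2 of fibroblasts (Dcn and Tcf21) and 1 of endothelium (Emcn) were higher, and 1 red cell marker (Hbb-bs) was lower. No marker of these lists was at 0 in any library, though some were near it, such as Myh11, Rgs5 and Adgre1 (14 to 36 reads). The part of these cells in the enzymes' differences was not tested.

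The genes whose pattern over the 6 libraries was most like that of the leading enzyme of each family were found by root mean square distance in log2, among 9981 genes with a mean of at least 10. For P4ha2 they were Rora, at a distance of 0.145, Bnip3 at 0.149 and Aldoc at 0.158. For Plod2 they were Prelid2 at 0.0908, Loxl2 at 0.0920 and Ak4 at 0.0998. For Loxl2 they were Bhlhe41 at 0.0446, Fam169a at 0.0665 and Selenbp1 at 0.0837. Bhlhe41 stood at 26.2 and 21.6 in knockouts 1 and 2, at 9.07 in the embryo labelled knockout 3, and at 9.54, 9.31 and 9.96 in controls.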

How the data were processed

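Poly(A) RNA of 6 single embryonic ventricles (500 ng, TruSeq v2 kit) was sequenced as 75 bp single-end reads on GRCm38, with CASAVA 1.8.2, cutadapt 1.3 and RSEM 1.2.3 named in the submitters' processing notes. The deposited table holds 1 normalized signal value per gene and library, made by the authors; its steps equal 1 read divided by a scaled library size that matched edgeR's TMM sizes, and 100% of values gave whole reads within 0.01, 9067805 to 12592902 per library. Each gene reached a value of about 1 in at least 3 libraries, so scarcer genes are not analysed here. Symbols came from GENCODE M21 for 13675 of 13843 IDs, and 168 had no match. Sequences came from RefSeq, whose table held windows for 5 of the 10 enzymes.

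Limma 3.58.1 with trend (R 4.3.3) was fitted to log2(value + 1) over all genes, knockouts 1 and 2 against 3 controls, with Benjamini-Hochberg adjustment and a threshold of 0.05; the pseudocount understates changes of low genes. The embryo labelled knockout 3 was kept apart because its Vhl level went against its label, a choice made with the data known. EdgeR 4.0.16 and DESeq2 1.42.0 on the recovered reads, a litter block, other pseudocounts, scalings and filters, and fits leaving out 1 embryo were alternatives. Scripts were tested on simulated data. The replicate block pairs knockout and control of litters 1 and 2, which the labels give, and the fit has 1 residual degree of freedom. Deviations of littermates from their group means correlated over genes at 0.32 and 0.24. With 2 knockouts these deviations mirror each other, so the 2 values are not independent. Knockout 2 and control 3, of different litters, correlated at 0.14. Levels and family shares per kilobase divide by the summed length of all annotated exons, so genes with unused exons are understated.

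The members and lists were chosen with earlier results of these data known. The named genes are the 10 enzymes, Vhl and Egln1, the genes of each list past the threshold (or up to 2 with the smallest p), and the 3 genes nearest in pattern to the leading enzyme of each family. P3h2, P3h3, Ppib, Tmem38b, Pdia4, Pdia6, Calr, Znhit1, Htra2 and the marker genes were named after their values were seen.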

Additional observations from a re-analysis of the deposited data

How the results depend on the processing

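Over 15 alternatives for each of the 10 enzymes, 141 log2 differences kept their direction and their side of the threshold, 6 were no longer past it and 3 newly passed it; none changed direction. The 6 were P4ha1, P4ha2, P4hb, Plod1, Plod2 and Loxl2 with all 6 libraries as labelled, where 0 enzymes, 0 genes higher and 0 genes lower passed in limma; DESeq2 on the same libraries, chosen after seeing the data, called 7 higher and 4 lower. The 3 were Plod3 with the replicate block, with genes of a mean of at least 5, and in DESeq2. The replicate block gave 681 genes higher and 444 lower, and 7 enzymes higher. Limma without trend gave 235 higher and 82 lower, and DESeq2 gave 278 lower. Leaving out 1 embryo gave 146 to 297 genes higher, lowest without knockout 1, and 44 to 90 lower, with 6 enzymes higher each time; without knockout 2 there were 236 higher, and without control 1, control 2 and control 3 there were 297, 219 and 259. The highest adjusted p of the 6 enzymes in those fits was 0.0381, for Plod1. The lone knockout is then assumed to vary like the controls. The family gaps kept their sign in all 10 alternatives, and no replicate block was fitted for them. The cause of these shifts was not tested. Loxl3 had the fewest reads of the 10, 50 to 164 per library, and the effect of depth was not tested.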
